A study of Homo sapiens with 6 samples.

Results

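The genes described here encode the proteins of the mitochondrial ribosome, followed with and without TGFβ in Panc-1, an immortal human cell line grown out of a pancreatic adenocarcinoma. Members were the genes whose symbol is MRPL or MRPS followed by a number and that have at least 1 probe set on the array annotated to that gene alone. This gave 77 of 19777 genes, carried by 142 of 54613 probe sets. A gene was tested where at least 1 of its probe sets reached a mean signal of 100 (6.64 on the log2 scale) in either group, which 76 members passed, among 10115 genes in all. The one that did not, MRPL45P2, is a pseudogene. The series holds 6 Affymetrix Human Genome U133 Plus 2.0 arrays of total RNA, 3 from untreated cultures and 3 from cultures given porcine TGFβ for 48 h. The labels give a dose of 5 ng/mL and 24 h without serum beforehand, in a protocol written for all samples. In the study's methods the dose is 5 nM instead, which is not the same amount, and the text below keeps to the labels. The design describes the experiment as done 3 times, all in a single cell line, so p-values measure the spread between these cultures.

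Mitochondria keep their own ribosome, the mitoribosome, which translates the few messages of the mitochondrial genome, all of them for subunits of the oxidative phosphorylation complexes. Its ribosomal RNAs come from mitochondrial DNA, but every protein of it is encoded in the nucleus, made in the cytosol and imported. The large subunit (MRPL genes) joins amino acids and the small subunit (MRPS genes) reads the message. Some of the proteins descend from bacterial ribosomal proteins, and the others have no bacterial counterpart. MRPS18A and MRPS30 sit in the large subunit despite their names and were counted there.

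Array medians ranged from 5.14 to 5.21 on the log2 scale. Correlations across the genes tested, which are not independent replicates, were at least 0.995 within a group and 0.949 to 0.953 between groups. Of 7 ductal epithelial markers 6 were above the signal limit, the exception being KRT19, and limma called 5 of these 6 lower with TGFβ. CDH1, which encodes E-cadherin, went from a mean of 7.58 to 5.56 on the log2 scale. No marker of another cell type reached the limit in either group (0 of 3 acinar, 0 of 4 endocrine, 0 of 4 leukocyte, 0 of 4 endothelial, 0 of 4 fibroblast and 0 of 2 hepatocyte genes), and their means lay between 3.52 and 6.11 on the log2 scale. The difference between the 3′ and 5′ probe sets of ACTB, a readout of RNA integrity, was 0.519 to 0.573 (log2) on untreated arrays and 0.269 to 0.386 on TGFβ arrays, so the groups did not overlap. The same difference for GAPDH was -0.0192 to -9.1e-05 on untreated arrays and -0.0426 to -0.00195 on TGFβ arrays. For GAPDH the groups overlapped. The part of RNA integrity in the values below was not tested.

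With TGFβ, messages of the mitochondrial ribosomal proteins were more often higher than lower, by small amounts. By limma with the replicate number as a block and Benjamini-Hochberg adjustment over all 10115 genes, 37 of 76 members were higher (48.7%, against 27.7% of all genes tested) and 10 were lower (13.2%, against 31%). The other 29 did not pass. The 10 include MRPS30 and MRPS23, whose direction turned with the choice of probe set. The median log2 fold change of the members, TGFβ minus untreated, was 0.14 with quartiles of -0.01 and 0.25, beside a median of -0.01 over all genes. The 76 values ran from -0.40 for MRPS6 to 0.62 for MRPL15. Only MRPL15 was higher by at least 1.5-fold, against 6.2% of all genes, and no member was lower by that much, against 7.22%. On arrays of whole cultures, a different mix of cells and a different amount of message per cell cannot be told apart.

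**Figure D1:**
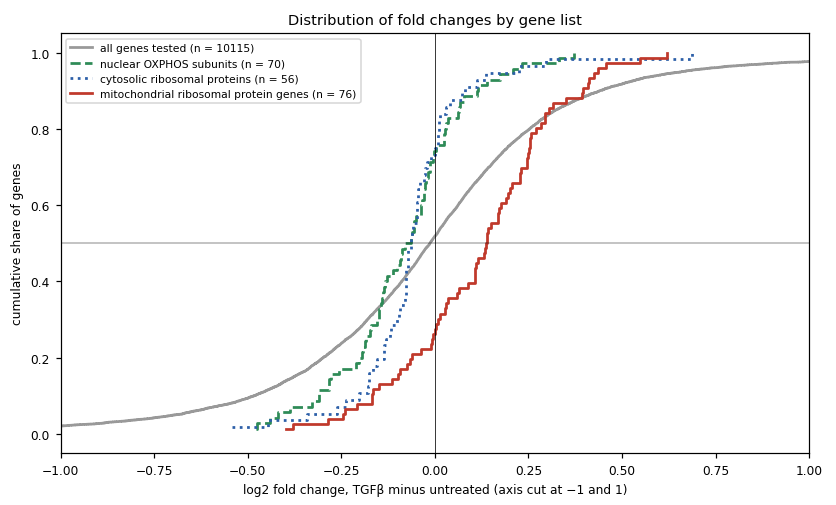
Cumulative share of genes (vertical axis) by log2 fold change, TGFβ minus untreated (horizontal axis, from -1 to 1), for 76 mitochondrial ribosomal protein genes, 56 cytosolic ribosomal protein genes, 70 nuclear genes of oxidative phosphorylation and all 10115 genes tested. The curve of the mitochondrial ribosomal protein genes crosses the middle line at 0.14, to the right of the other 3 curves, which cross it between -0.07 and -0.01.

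The shift was also visible array by array. The median log2 value over the 76 members was 10.26, 10.30 and 10.31 on the untreated arrays and 10.37, 10.40 and 10.41 on the TGFβ arrays, and the groups did not overlap. The median over all genes tested was 8.61 to 8.65 on untreated and 8.57 to 8.66 on TGFβ arrays. All 3 TGFβ arrays lay above all 3 untreated arrays for 46 members, against 32.7% of all genes, and below them for 12, against 35.5%. The 46 held all 37 members called higher and the 12 all 10 called lower. Taken by replicate number, the median difference of the members was 0.18, 0.09 and 0.14 (log2), with 60, 49 and 56 of 76 members positive. Over all 10115 genes tested it was 0.025, -0.035 and -0.032, with 5380, 4642 and 4650 genes positive. The data do not show that the replicate numbers pair the samples. The counts of members called rest in part on single replicates. Without replicate 2, 23 members were higher and 5 lower, and without replicate 3, 22 were higher and 4 lower. The shares of all genes called in these fits are not given here, so the drop is not shown to be particular to the members. The median of the members stayed between 0.12 and 0.16 with any replicate left out.

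**Figure D2:**
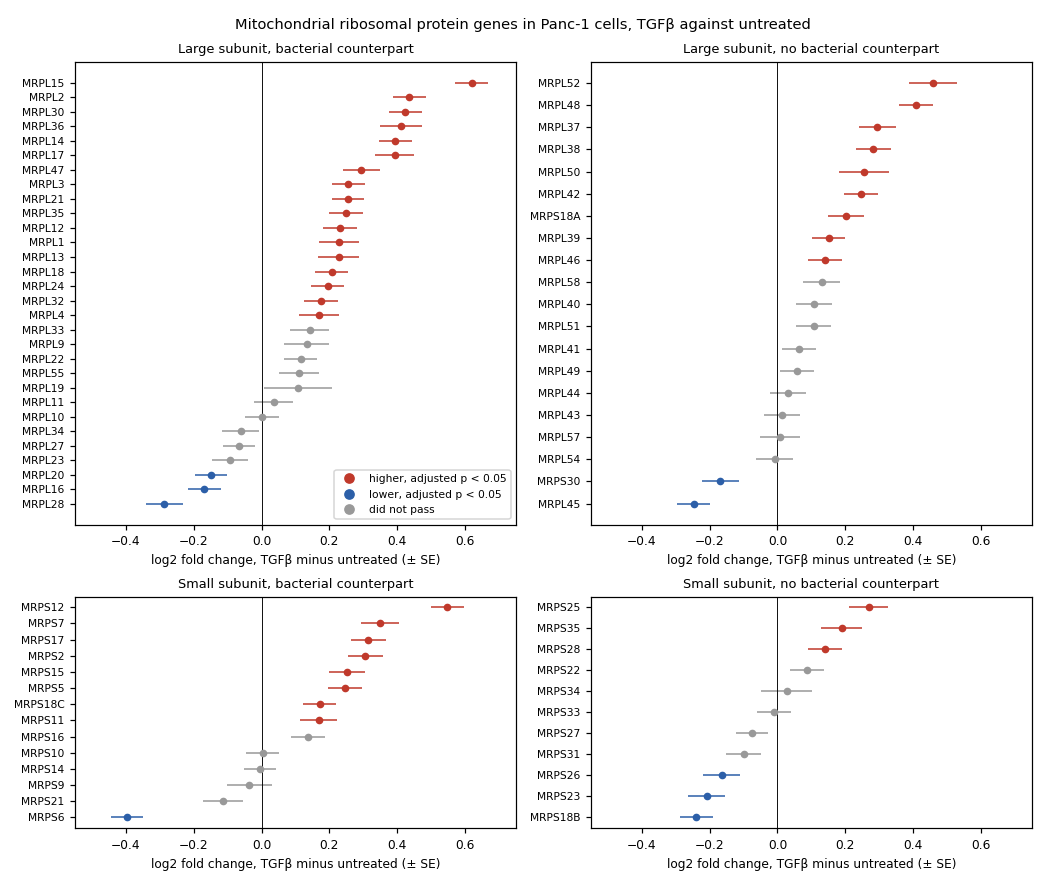
Log2 fold change, TGFβ minus untreated (horizontal axis), with its SE for each of the 75 tested members that encode a subunit, in 4 panels by subunit and bacterial ancestry; red and blue mark limma calls higher and lower at an adjusted p under 0.05, and grey those that did not pass. Higher calls are 17 of 30, 9 of 20, 8 of 14 and 3 of 11 in the panels for the large subunit with and without and the small subunit with and without a bacterial counterpart.

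Many members carry the same short sequences at their start sites, which the choice by symbol did not use. Promoter windows of 250 bases before to 50 bases after each RefSeq start (build GRCh38.p14) were used for 68 of the 77 members. They were searched on both strands for 4 short motifs, counting a gene if any of its windows held a match. The other members were not searched, so whether their start sites hold these motifs was not tested. The percentages for other genes below also count only genes whose windows were searched. AAGATGGC, the core bound by YY1, a zinc finger factor, was in 20 of 68 members (29.4%). It was in 7.16% of 8232 protein-coding genes tested and in 3.52% of the 27305 genes searched. CCGGAAG, the core bound by ETS factors such as GABP, which is known for nuclear genes of mitochondria, was in 30 members (44.1%) and in 24.1% and 12.2% of these backgrounds. CGCANGCGC, a core of the NRF1 site, was in 12 members (17.6%), near the 18.9% of protein-coding genes tested. CACGTG, the E-box bound by MYC, was in 9 (13.2%), against 13.4%. The YY1 letters lay at or just after the start, with the nearest match beginning at a median of 11 bases after it, and at or after the start in 15 of 20 members. The nearest ETS letters began within 50 bases of the start in 25 of 30 members.

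The motifs were found in members of both directions. The YY1 letters were in 11 of 31 members called higher, 4 of 10 called lower and 5 of 27 that did not pass, and the ETS letters in 10, 6 and 14 of these. Among the lower ones, MRPS30 with the YY1 letters and MRPS23 with the ETS letters turned to higher with their brightest probe set. Below are 30-base stretches around the YY1 letters, in capitals, for 3 members called higher and then 3 called lower. They were picked because they hold these letters, so they do not show how alike the start sites are otherwise. Each is written 5′ to 3′ along the strand of the gene.
MRPS7 (chr17:75261887-75261916, plus strand): cgtggccagccAAGATGGCtgcccccgcag
MRPL38 (chr17:75904860-75904889, minus strand): aggccggagggAAGATGGCggcgccctggt
MRPL52 (chr14:22829812-22829841, plus strand): aacccagattcAAGATGGCgacttcctgct
MRPL45 (chr17:38297170-38297199, plus strand): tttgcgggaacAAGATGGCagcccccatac
MRPS18B (chr6:30617852-30617881, plus strand): gggcgtacgtcAAGATGGCggcgtctgtat
MRPL20 (chr1:1407260-1407289, minus strand): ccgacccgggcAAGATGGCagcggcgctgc
In MRPL45, MRPS18B and MRPL20 the letters began 13, 23 and 15 bases after the start, in MRPS7 and MRPL38 19 and 6 bases after it, and in MRPL52 64 bases before it.

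The next stretches hold the ETS letters in capitals, read on the gene's own strand in MRPS12 and as the reverse complement in the others. MRPS12, MRPL48 and MRPL30 were called higher, MRPL28 and MRPL16 lower.
MRPS12 (chr19:38930928-38930957, plus strand): acggatagcgcCCGGAAGaggctagaagct
MRPL48 (chr11:73787800-73787829, plus strand): aatttcagaagCTTCCGGaactaaaatgat
MRPL30 (chr2:99181028-99181057, plus strand): ggtctgctgcgCTTCCGGgaagtggtcatg
MRPL28 (chr16:370513-370542, minus strand): cggcagatcggCTTCCGGttccggtgggct
MRPL16 (chr11:59810766-59810795, minus strand): agtgaacacaaCTTCCGGccccactgagcg
A match of letters describes the window and shows no binding.

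Among the 30 large-subunit members with a bacterial counterpart, 17 were higher, 3 lower and 10 did not pass, with a median log2 fold change of 0.19. MRPL15 (Entrez 29088) had log2 values of 11.41, 11.50 and 11.51 untreated and 12.06, 12.12 and 12.10 with TGFβ. It was the largest change of the family, at 0.62 ± 0.049 (log2 fold change ± SE, limma adjusted p = 0.000167) or 1.54-fold, and every TGFβ array lay above every untreated array. MRPL2 (Entrez 51069), a core protein near the site where amino acids are joined, read 7.64, 7.61 and 7.62 untreated and 8.11, 8.03 and 8.04 with TGFβ, a rise of 0.44 ± 0.048 (limma adjusted p = 0.000619). MRPL30 (Entrez 51263) read 8.72, 8.71 and 8.59 untreated and 9.12, 9.12 and 9.05 with TGFβ, and MRPL36 (Entrez 64979), the smallest of these core proteins in bacteria, read 11.03, 11.13 and 11.04, then 11.51, 11.40 and 11.52. Both rose without overlap, by 0.42 ± 0.048 (limma adjusted p = 0.000674) and 0.41 ± 0.062 (limma adjusted p = 0.00207). The value of MRPL30 depended on which of its probe sets reached the limit. Without replicate 3 it was 0.21 with an adjusted p of 0.0655, and without replicate 1 it was 0.22.

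In the same class 3 members were lower. MRPL28 (Entrez 10573) read 9.74, 9.84 and 9.85 untreated and 9.53, 9.46 and 9.57 with TGFβ, with no overlap, a fall of -0.29 ± 0.055 (limma adjusted p = 0.00528) or 1.22-fold. MRPL16 (Entrez 54948) went from 9.56, 9.62 and 9.55 to 9.42, 9.42 and 9.38 (-0.17 ± 0.048, limma adjusted p = 0.0245). MRPL20 (Entrez 55052) went from 11.86, 11.83 and 11.86 to 11.74, 11.66 and 11.71 (-0.15 ± 0.048, limma adjusted p = 0.0364). The groups did not overlap for either gene, but both calls were lost without replicate 2 (adjusted p = 0.152 and 0.194) and without replicate 3 (0.129 and 0.171). At the other end stood MRPL10 (Entrez 124995), with 10.59, 10.66 and 10.66 untreated and 10.65, 10.66 and 10.61 with TGFβ. Its difference was 0.0013 ± 0.051 (limma adjusted p = 0.984), the smallest of the class, and the groups overlapped.

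Proteins without a bacterial counterpart lie largely on the outside of the large subunit, and 9 of these 20 members were higher, 2 lower and 9 did not pass (median 0.12). MRPL52 (Entrez 122704) read 9.55, 9.73 and 9.75 untreated and 10.18, 10.05 and 10.17 with TGFβ, and rose by 0.46 ± 0.072 (limma adjusted p = 0.00239) or 1.37-fold. MRPL48 (Entrez 51642) read 9.04, 9.09 and 9.08, then 9.47, 9.43 and 9.53, and rose by 0.41 ± 0.051 (limma adjusted p = 0.00099). Neither gene's groups overlapped. MRPL37 (Entrez 51253) went from 10.49, 10.55 and 10.58 to 10.87, 10.79 and 10.84, a rise of 0.29 ± 0.054 (limma adjusted p = 0.00468). MRPL38 (Entrez 64978) went from 9.91, 9.94 and 9.94 to 10.15, 10.28 and 10.21, a rise of 0.28 ± 0.050 (limma adjusted p = 0.004). The values of both genes were separate between the groups. With no filter on low signal, which brings a further, dim probe set into MRPL38, its value was 0.10 and did not pass (adjusted p = 0.224).

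MRPL45 (Entrez 84311), which tethers the mitoribosome to the inner membrane beside the exit of the new chain, was lower. It read 9.32, 9.40 and 9.30 untreated and 9.09, 9.11 and 9.07 with TGFβ, a fall of -0.25 ± 0.049 (limma adjusted p = 0.00609) with no overlap. Without replicate 2 the adjusted p was 0.0566. MRPL57 (Entrez 78988) had the smallest difference of this class, 0.0074, with 9.64, 9.78 and 9.76 untreated and 9.75, 9.69 and 9.76 with TGFβ, and the groups overlapped (limma adjusted p = 0.921).

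**Figure D3:**
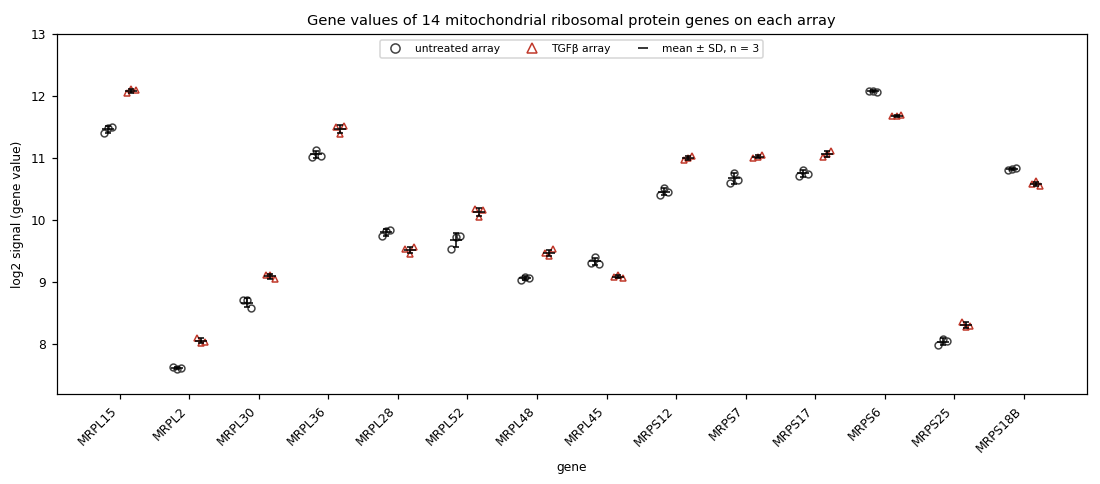
Log2 gene value (vertical axis) of 14 members on each array, circles for 3 untreated and triangles for 3 TGFβ arrays, with bars for the mean ± SD (n = 3 arrays). The symbols of the 2 groups are separate for all 14 genes, with TGFβ lower in MRPL28, MRPL45, MRPS6 and MRPS18B and higher in the other 10.

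In the small subunit, 8 of 14 members with a bacterial counterpart were higher, 1 was lower and 5 did not pass (median 0.17). MRPS12 (Entrez 6183), the counterpart of the bacterial protein that governs the accuracy of decoding, read 10.41, 10.52 and 10.46 untreated and 10.98, 11.01 and 11.04 with TGFβ. It rose by 0.55 ± 0.050 (limma adjusted p = 0.00029) or 1.46-fold, with no overlap. MRPS7 (Entrez 51081) read 10.61, 10.77 and 10.65, then 11.01, 11.02 and 11.06, and rose by 0.35 ± 0.056 (limma adjusted p = 0.00264). MRPS17 (Entrez 51373) read 10.71, 10.81 and 10.75, then 11.02, 11.08 and 11.12, and MRPS2 (Entrez 51116) read 8.69, 8.80 and 8.83, then 9.07, 9.05 and 9.12. The groups were separate for these genes too, with rises of 0.32 ± 0.051 (limma adjusted p = 0.00268) and 0.31 ± 0.051 (limma adjusted p = 0.00319).

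MRPS6 (Entrez 64968) had the largest fall of the family. Its log2 values were 12.09, 12.09 and 12.07 untreated and 11.68, 11.68 and 11.70 with TGFβ, lower on every array, by -0.40 ± 0.048 (limma adjusted p = 0.000851) or 1.32-fold. In RefSeq the gene SLC5A3, a myo-inositol transporter, lies within MRPS6, and it was lower too, by -0.84 ± 0.053 (limma adjusted p = 7.53e-05). The single probe set of MRPS6 is annotated to MRPS6 alone, and whether it also takes up message of the other gene was not tested. MRPS10 (Entrez 55173) had the smallest difference of this class, 0.003, with overlapping values of 10.83, 10.91 and 10.78 untreated and 10.83, 10.88 and 10.82 with TGFβ (limma adjusted p = 0.961).

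The 11 small-subunit members with no bacterial counterpart had counts near those of all genes (27.7% higher and 31% lower). In this class 3 were higher, 3 lower and 5 did not pass, with a median of -0.01. The lower ones include MRPS23, whose brighter probe set rose, so the counts and the median depend on the choice of probe set. MRPS25 (Entrez 64432) read 7.98, 8.09 and 8.05 untreated and 8.36, 8.27 and 8.30 with TGFβ, a rise of 0.27 ± 0.057 (limma adjusted p = 0.00819). MRPS35 (Entrez 60488) went from 11.35, 11.33 and 11.28 to 11.41, 11.59 and 11.53 (0.19 ± 0.060, limma adjusted p = 0.0354). MRPS28 (Entrez 28957) went from 10.24, 10.26 and 10.27 to 10.33, 10.40 and 10.46 (0.14 ± 0.050, limma adjusted p = 0.0496). None of the 3 overlapped, but MRPS35 and MRPS28 were not called without replicate 2 (adjusted p = 0.194 and 0.195) or without replicate 3 (0.172 and 0.274).

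The lower members of this class were MRPS18B, MRPS26 and, by the mean of its probe sets, MRPS23, whose brighter probe set rose and which is described below with the probe sets. MRPS18B (Entrez 28973) read 10.82, 10.83 and 10.84 untreated and 10.59, 10.63 and 10.56 with TGFβ, a fall of -0.24 ± 0.049 (limma adjusted p = 0.00705), with an adjusted p of 0.0557 without replicate 3. MRPS26 (Entrez 64949) read 10.01, 10.11 and 10.07, then 9.89, 9.85 and 9.95, a fall of -0.16 ± 0.055 (limma adjusted p = 0.0418) that was not called without replicate 2 (0.269) or without replicate 3 (0.099). Neither gene overlapped between groups. MRPS33 (Entrez 51650) showed the smallest difference, -0.01, with overlapping values of 11.10, 11.12 and 11.11 untreated and 11.08, 11.07 and 11.15 with TGFβ (limma adjusted p = 0.868).

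MRPS18A, MRPS18B and MRPS18C are paralogs related to 1 bacterial protein, of which MRPS18C was counted as the counterpart, and they were picked out after their values were seen. MRPS18A went from 9.07, 9.21 and 9.13 to 9.26, 9.35 and 9.41 (0.20 ± 0.053, limma adjusted p = 0.018) and MRPS18C from 10.45, 10.53 and 10.56 to 10.64, 10.66 and 10.75 (0.17 ± 0.049, limma adjusted p = 0.0239). So 2 paralogs were higher and MRPS18B, whose probe sets both fell, was lower. The calls of MRPS18A and MRPS18C were lost without replicate 2 (adjusted p = 0.056 and 0.089) and without replicate 3 (0.138 for both).

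Members of the stalk and of the exit tunnel did not all have the same call, and the differences between them were not tested. The stalk of the large subunit recruits translation factors and is built from MRPL10, MRPL11 and MRPL12. MRPL12 (Entrez 6182), which is also known to bind the mitochondrial RNA polymerase, rose from 8.70, 8.79 and 8.80 to 8.99, 8.99 and 9.00 with no overlap (0.23 ± 0.051, limma adjusted p = 0.00904). MRPL10, above, and MRPL11 did not pass. MRPL11 (Entrez 65003) read 10.41, 10.49 and 10.40 untreated and 10.43, 10.43 and 10.54 with TGFβ, and the groups overlapped (limma adjusted p = 0.618).

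Around the exit tunnel sit MRPL22, MRPL23 and MRPL24. MRPL24 (Entrez 79590) rose from 9.75, 9.78 and 9.81 to 9.93, 10.02 and 9.97 with no overlap (0.20 ± 0.049, limma adjusted p = 0.0153), but its call was lost without replicate 2 (adjusted p = 0.118) and without replicate 3 (0.061). MRPL22 (Entrez 29093) read 10.51, 10.55 and 10.49, then 10.62, 10.63 and 10.64 (limma adjusted p = 0.0852). MRPL23 (Entrez 6150) read 9.96, 10.08 and 10.00, then 9.91, 9.90 and 9.95 (limma adjusted p = 0.171). Neither passed, although the arrays of the groups were separate for both, above for MRPL22 and below for MRPL23. MRPL58 (Entrez 3396), a peptidyl-tRNA hydrolase that frees stalled mitoribosomes, read 10.28, 10.35 and 10.35 untreated and 10.50, 10.40 and 10.47 with TGFβ and did not pass either (0.13 ± 0.055, limma adjusted p = 0.0825).

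Several members are read by more than 1 probe set, and these could disagree. Of 24 members with at least 2 probe sets past the limit, 6 had probe sets of both signs, and the median spread between a gene's highest and lowest log2 difference was 0.11. The largest spread, 1.08, was that of MRPS30 (Entrez 10884). Its probe set 218398_at rose from 9.78, 9.89 and 9.81 to 10.26, 10.33 and 10.24 (0.45 ± 0.054, limma adjusted p over probe sets = 0.000973). In contrast, 222275_at fell from 7.62, 7.50 and 7.62 to 7.07, 6.79 and 6.99 (-0.63 ± 0.059, limma adjusted p = 0.000409) and 227600_at from 7.25, 7.40 and 7.38 to 7.12, 7.03 and 6.89 (-0.33 ± 0.080, limma adjusted p = 0.0155). None of the 3 overlapped between groups. The gene value, their mean, was counted as lower (-0.17 ± 0.056, adjusted p = 0.0398), and it was 0.45 with only the probe set of highest signal and under a stricter signal limit of 200, so its direction is unsettled. That call was also lost without replicate 2 (adjusted p = 0.2) and without replicate 3 (0.214).

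MRPS23 (Entrez 51649) was the other member with opposed probe sets. 223156_at rose from 11.37, 11.46 and 11.41 to 11.65, 11.67 and 11.62 (0.24 ± 0.055, limma adjusted p = 0.0123), and 238728_at fell from 6.77, 6.76 and 6.79 to 5.98, 6.33 and 6.06 (-0.65 ± 0.084, limma adjusted p = 0.00125). The dim one of these was just above the signal limit of 6.64 untreated and below it on every TGFβ array. The gene value was lower by -0.21 ± 0.055 (adjusted p = 0.0186), with 0.111 without replicate 3, and was 0.24 under each setting that left the dim probe set out. In MRPS12 the 3 probe sets past the limit all rose, by 0.64, 0.28 and 0.72, the smallest being that of highest signal. In MRPS25, 224869_s_at rose by 0.51 and 224015_s_at had a difference of 0.03. The 33 probe sets of members below the limit had a median difference of -0.02, with 17 of 33 under 0, and lay between -0.91 and 0.34.

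**Figure D4:**
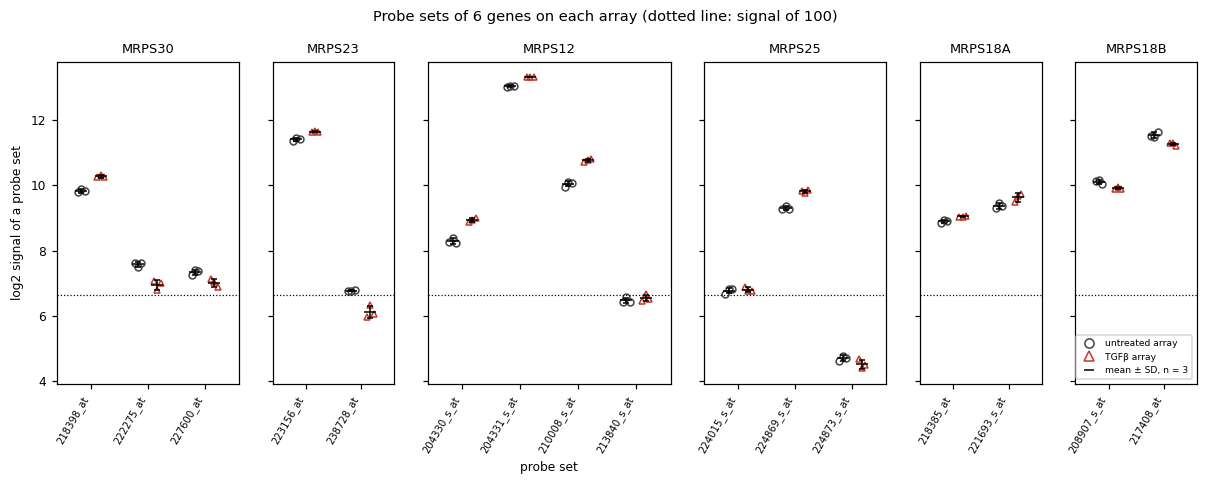
Log2 signal (vertical axis) of each probe set of 6 members on each array, circles for 3 untreated and triangles for 3 TGFβ arrays, with bars for the mean ± SD (n = 3) and a dotted line at the signal limit of 100. In MRPS30 and MRPS23 the first probe set is higher with TGFβ and the others lower, while both probe sets fall in MRPS18B and those of MRPS18A differ by 0.15 and 0.25, the former not past the test.

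The rule by symbol also took in 2 genes that encode no subunit. MRPL20-AS1 (Entrez 148413), annotated as an RNA antisense to MRPL20, read 9.25, 9.20 and 9.24 untreated and 8.87, 8.87 and 8.81 with TGFβ, a fall of -0.38 ± 0.050 (limma adjusted p = 0.00118) with no overlap. MRPL20, which it overlaps, was lower as well. MRPL45P2, the pseudogene below the signal limit, had values of 3.21, 3.22 and 3.28 untreated and 3.45, 3.34 and 3.26 with TGFβ and was not tested.

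The remaining machinery of mitochondrial gene expression held genes of both directions, and its counts stand beside 27.7% higher and 31% lower among all genes tested. Among mitoribosomal proteins with other symbols, 1 of 4 tested was higher and 1 lower. GADD45GIP1, a large-subunit protein, rose from 10.13, 10.21 and 10.26 to 10.57, 10.41 and 10.45 (0.28, limma adjusted p = 0.0125), and PTCD3, a small-subunit protein of the pentatricopeptide repeat family, fell from 7.98, 7.99 and 8.03 to 7.46, 7.30 and 7.55 (-0.56, limma adjusted p = 0.000518). Neither overlapped between groups. Of 13 translation factors 5 were higher and 2 lower (median 0.08), among them the release factors MTRF1 (0.50) and MTRF1L (0.47) and the formyltransferase MTFMT (0.34), which makes the initiator tRNA, all higher, and the rescue factor MTRES1 (-0.61) and the initiation factor MTIF3 (-0.16), both lower.

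Of 23 genes for mitoribosome assembly and rRNA maturation 11 were higher and 3 lower (median 0.12), again beside 27.7% and 31% of all genes tested. MALSU1, which holds the large subunit apart from the small one during assembly, had the largest rise, from 10.15, 10.32 and 10.32 to 11.14, 11.09 and 11.16 (0.87 ± 0.061, limma adjusted p = 0.000111), with no overlap. RBFA, a small-subunit assembly factor, rose by 0.60 and the pseudouridine synthase TRUB2 by 0.36, and MTERF4, YBEY and NOA1 were lower (-0.38, -0.22 and -0.20). Of 17 genes for mitochondrial transcription and RNA handling 7 were higher and 3 lower (median 0.14). The polymerase POLRMT rose by 0.38, its factor TFB2M by 0.33 and FASTKD1 by 0.70, while LRPPRC, which stabilises mitochondrial messages, was lower (-0.35), as were MTERF2 (-0.30) and FASTK (-0.22).

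Regulators of nuclear genes for mitochondria were measured as messages too. Of 7 tested, 4 were higher and 1 lower (median 0.16), beside 27.7% higher and 31% lower among all genes tested. MYC read 9.84, 9.93 and 9.91 untreated and 11.33, 11.20 and 11.24 with TGFβ, a rise of 1.37 ± 0.060 (limma adjusted p = 2.01e-05) with no overlap. The coactivator PPRC1 rose by 0.56 and GABPB1, the β subunit of GABP, by 0.47. GABPA, the subunit of GABP that binds DNA, read 7.37, 7.34 and 7.39, then 7.30, 7.23 and 7.05, and did not pass (limma adjusted p = 0.067). NRF1 was lower (-0.15, limma adjusted p = 0.0455), and YY1 had a difference of -0.08 (limma adjusted p = 0.231). Message levels do not show the activity of these factors at the motifs above.

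A pair of related gene groups was counted in the same way, again beside 27.7% higher and 31% lower among all genes. Of 56 cytosolic ribosomal protein genes 3 were higher, 11 lower and 42 did not pass, with a median of -0.06. The higher ones were RPL22L1 (0.69), RPS24 (0.30) and RPL39L (0.22), of which RPL22L1 and RPL39L are paralogs of standard subunits, and RPS15A (-0.54), RPL31 (-0.45) and RPS28 (-0.34) had the largest falls. Nuclear genes of oxidative phosphorylation encode products that assemble with those that the mitoribosome makes. Of 70 such genes 6 were higher, 23 lower and 41 did not pass (median -0.07). The share of lower genes, 32.9%, was near that of all genes, while the share of higher genes, 8.57%, was below their 27.7%. The higher ones included NDUFV3 (0.37) of complex I, UQCRC1 (0.33) of complex III and ATP5MC1 (0.23) of the ATP synthase. The largest falls were those of NDUFA5 and NDUFA2 (both -0.48) of complex I and ATP5IF1 (-0.44), the inhibitor of the ATP synthase. Median untreated signal (log2) was 13.57 for the cytosolic ribosomal protein genes and 11.81 for the nuclear genes of oxidative phosphorylation. It was 10.29 for the members and 8.63 for all genes tested. The part of signal level in these counts was not tested, and neither were the differences between the groups of genes.

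Some members start back to back with another gene on the opposite strand, and how common this is among other genes was not counted. Starts that overlap slightly, as at MRPL3 and MRPL9, were taken in as well. These neighbours, chosen by position after the values were seen, held genes of every call. A start on the opposite strand within 1000 bases was found for 27 of 68 members, and for 20 pairs the neighbour was a protein-coding gene that could be tested, counting MRPL46 and MRPS11, which share such a region, from both sides. Of 11 pairs with a higher member the neighbour was higher in 4, lower in 4 and did not pass in 3, counts too few to set apart from the 27.7% higher and 31% lower of all genes, and MRPL46 with MRPS11 gives 2 of the 4 higher ones. In the 2 pairs with a lower member the neighbour did not pass, and with 7 members that did not pass it was higher in 1. SARS2, the mitochondrial seryl-tRNA synthetase, starts 181 bases from MRPS12 and was lower (-0.16 ± 0.048, limma adjusted p = 0.0277) where MRPS12 was higher by 0.55. CYB5RL, 137 bases from MRPL37, was lower by -0.75 ± 0.058 (limma adjusted p = 0.000163), and PIERCE1, 96 bases from MRPS2, by -0.54 ± 0.051 (limma adjusted p = 0.000329). SSBP3, which overlaps MRPL37 in RefSeq, was lower as well (-1.01 ± 0.076, limma adjusted p = 0.000145). HELQ, a DNA helicase 175 bases from MRPS18C, was lower by -0.47 ± 0.053 (limma adjusted p = 0.000637). In the other direction, MITD1 (0.26) rose with MRPL30, GGA3 (0.30) with MRPS7, and MRPL46 (0.14) and MRPS11 (0.17) rose together, the last 2 losing their call without any 1 of the 3 replicates.

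**Figure D5:**
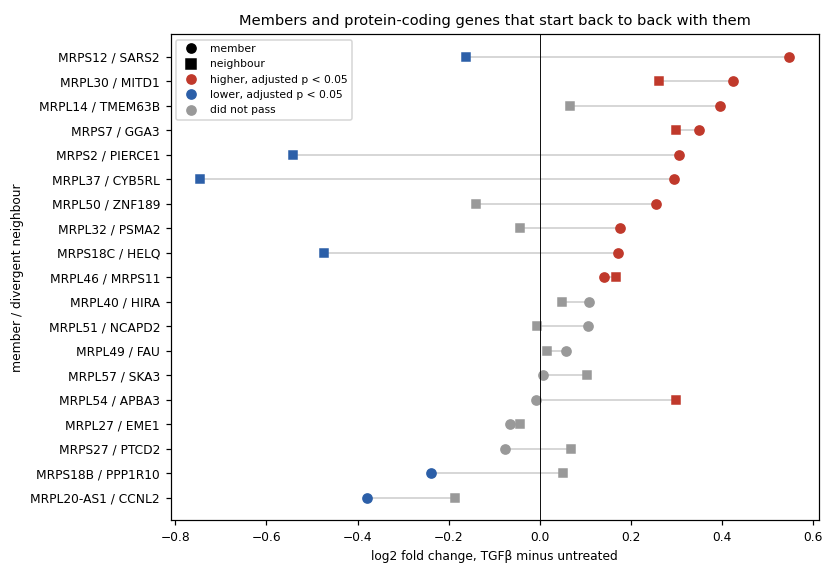
Log2 fold change, TGFβ minus untreated (horizontal axis), of each member (circle) and of the protein-coding gene that starts back to back with it within 1000 bases (square), with colours for the limma call. Both symbols are red for MRPL30 and MITD1, MRPS7 and GGA3, and MRPL46 and MRPS11, while the neighbours of MRPS12, MRPS2, MRPL37 and MRPS18C are blue where the member is red.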

How the data were processed

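Total RNA was made into biotinylated cRNA by the submitters and hybridised, and the deposited values are on the log2 scale, as read from the values, with each probe set measured once per array. The authors' normalisation of these log2 values was not given in the sources used here. Precision is limited by having 3 arrays a group. Genes were named through the platform's annotation, with symbols updated by Entrez ID from RefSeq, and 4 probe sets that name a member and another gene were left out. As in the methods of the study, a probe set was removed if its mean signal stayed below 100 in both groups, which kept 19101, and the replicate number was a block because the methods use a paired test. Kept probe sets of a gene were averaged. The two-sided test was limma's moderated one (version 3.58.1, lmFit then eBayes, run under R 4.3.3), with Benjamini-Hochberg adjustment over 10115 genes and a threshold of 0.05. There were 2 residual and 4.12 prior degrees of freedom. Python 3.11.15 was used for motifs (pandas 2.3.3) and for plots (matplotlib 3.10.9). Tested on simulated data for this comparison with 10115 genes, the workflow recovered 19 of 50 genes planted at 1.25-fold, 42 of 50 at 1.5-fold and 48 of 50 at 2-fold. Only 163 genes were called in that simulation, against 2799 higher and 3135 lower in the data. The Benjamini-Hochberg limit was therefore stricter there, and the recovered shares need not hold for the data. The members, the lists and the tests were chosen with earlier results of these data known. Members named with every value were, in each of 4 classes, up to 4 with the largest change past the threshold in each direction and the one with the smallest change, those with opposed probe sets, the one below the limit, and those of the stalk, exit tunnel, decoding and rescue. Of other lists, up to 3 genes each way were named, and GABPA and YY1 were added for the motifs. Alternatives covered the block, the filter, normalization, a constant added, the variance model, the choice of probe sets, thresholds, the methods' t-test and each replicate left out.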

Additional observations from a re-analysis of the deposited data

How the results depend on the processing

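The median log2 fold change of the members, 0.14, lay between 0.11 and 0.16 under all alternatives. The counts moved more. Shares of all genes under the same settings are not given beside them. The counts below therefore do not show whether the members' excess over all genes changed. Against 37 higher and 10 lower, no filter on low signal gave 20 higher and 7 lower, median centring of the arrays 28 and 6, an adjusted p under 0.01 gave 23 and 5, and a 1.5-fold limit beside the test 1 and 0. The methods' t-test gave 33 higher and 8 lower unadjusted, and 12 and 6 after Benjamini-Hochberg. With 1 replicate left out, 22 to 35 members were higher and 4 to 11 lower. Without the replicate block 41 were higher and 10 lower. The correlations of same-numbered samples' deviations were -0.289, 0.242 and 0.0597, so the data do not show that the numbers pair the samples, and the block was kept only because the methods use a paired test. MRPS30 reversed to 0.45 with its brightest probe set or a signal limit of 200, MRPS23 to 0.24 with those and with a filter on the mean over all arrays, and MRPS10, which did not pass, to -0.17 with its brightest probe set. Over the alternatives computed gene by gene, 15 of the 37 higher calls and 3 of the 10 lower ones (MRPL28, MRPS6 and MRPL20-AS1) were kept in all.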
